A study of Danio rerio with 8 samples.

Results

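Small nucleolar RNAs (snoRNAs) were followed in small RNA libraries of zebrafish larvae at 7 days postfertilization (dpf). The genes described here are all rows of the count table with the biotype snoRNA and a summed count of at least 10 over the 8 libraries. They were 171 of the 247 snoRNA rows, among 32520 genes in all. Of the other snoRNA rows, 41 had no read and 35 had fewer reads than the minimum. The genes were thus chosen by their measured read counts, so that the height of their counts is a description and not a result. Just inside the minimum stood 4 genes with 10 reads, snord47.2, snord118b.4, CU638697.1 and CR855320.5. Just outside stood CR339054.3 and a SNORA73 copy (BX276180.3) with 9 reads, and below them 3 rows with 8 reads.

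The larvae came from AB wildtype fish. In the S- group, males of 12 months that had been left undisturbed were crossed with control females, and in the S+ group the males had first gone through 21 days of chronic stress while the females had not. Each of the 4 libraries of a group was made from a pool of 50 whole larvae of 1 crossing, so the individual larva was not resolved. In these bulk samples, fewer cells that make a snoRNA and less of it per cell cannot be told apart. The comparison of S+ with S- asked whether the father's stress was accompanied by a change in small noncoding RNAs of the larvae.

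snoRNAs work in the nucleolus, where they pair with ribosomal RNA (rRNA) and guide its chemical modification. Those of the box C/D class sit with fibrillarin and direct methylation of the ribose, while those of the H/ACA class sit with dyskerin and direct the change of uridine into pseudouridine. A few, such as U3, do not guide a modification but are needed to cut the rRNA precursor. In vertebrates most snoRNAs are cut out of introns of host genes, many of which encode ribosomal proteins. A whole snoRNA is longer than the RNAs that a small RNA library is meant to capture, and whether the reads counted here came from whole snoRNAs or from fragments cannot be read from the counts.

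Library totals ran from 3492945 to 4943297 counts and no 2 libraries were identical. MiRNA genes held between 96.2% and 97.9% of the counts of a library, while the 171 snoRNA genes held between 0.368% and 0.532%, on 16059 to 23778 reads. The tissue miRNAs of whole larvae were present in every library. The 6 genes of the muscle miRNAs miR-1, miR-133 and miR-206 summed to at least 34526 CPM (counts scaled to a common library total), the 13 genes of the neural miR-124 and miR-9 to at least 77883, and the liver gene dre-mir-122 to at least 1449. Of the 55 miR-430 genes, which mark the early embryo, 26 were at 0 and their sum stayed at or below 409 CPM.

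The snoRNA reads were concentrated in few genes. Of the 148360 reads of the 171 genes, 21.7% fell on a single gene and 50.1% on 4 genes, and 36 genes held 90 percent of them. At the other end, 82 genes had fewer than 100 reads over the 8 libraries, and 115 of the 171 had a read in every library. Most of these genes carry a clone name as their symbol. A snoRNA name was given for 5 genes by the count table and for 66 more by the gene name table of the reference, and 2 genes had an identifier alone. The names placed 52 genes in the box C/D class and 19 in the H/ACA class, while 100 could not be classified. Box C/D genes held 24.9% of the reads, H/ACA genes 0.737% and unclassified genes 74.3%. The highest summed count was 8933 for a box C/D gene and 257 for an H/ACA gene, and the medians of these classes were 165.5 and 28. Gene lengths were not used here, so these are counts of reads and not levels per length.

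**Figure D1:**
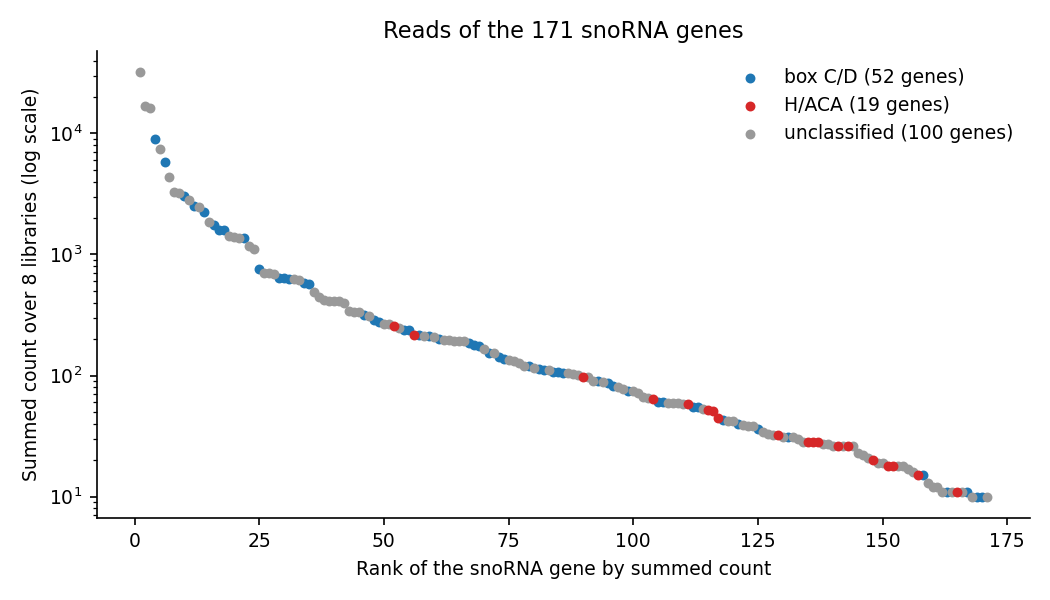
Summed count over the 8 libraries (vertical axis, log scale) of each of the 171 snoRNA genes, ordered by that count (horizontal axis) and coloured by the class its name gives. The first 4 genes hold 50.1% of the reads, and the 19 H/ACA genes all lie at 257 reads or below.

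The 12 genes with the most reads were followed in every library, from here on in CPM of the library size after scaling by TMM factors. The first of them, BX005203.1 (ENSDARG00000080172), has no snoRNA name and had 1491, 1102, 779 and 1262 CPM in S- 1 to S- 4 and 928, 1181, 491 and 971 CPM in S+ 1 to S+ 4. The lowest library was S+ 3 and the highest S- 1, and the ranges of the groups overlapped. Its means were 1159 ± 299 CPM in S- and 892 ± 289.7 CPM in S+ (SD, n = 4 each), with a log2 fold change of -0.41 (SE 0.283, adjusted p = 0.552 by limma). The adjusted p is that of Benjamini and Hochberg over the 651 genes with enough reads to be tested, 96 of them snoRNA genes, and a gene was called where it fell under 0.05 and the log2 fold change exceeded 0.58 in either direction. In all, 0.307% of the tested genes were called and none of the snoRNA genes. Without S+ 3 the log2 fold change of BX005203.1 was -0.15, so that 1 library held most of the distance between the groups.

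Next in reads came snoRNA genes of the clone CU929070, which holds 4 of the 171 genes and 42024 of their reads. All 4 had a higher mean in S+, with log2 fold changes of 0.33 for CU929070.1 (ENSDARG00000080372), 0.24 for CU929070.2, 0.33 for CU929070.3 and 0.70 for CU929070.4, but none was called. CU929070.4 (ENSDARG00000083266) had 148, 181, 143 and 219 CPM in S- 1 to S- 4 and 170.4, 328, 228 and 463 CPM in S+ 1 to S+ 4. The highest library was S+ 4, while S+ 1 lay within the range of the S- libraries. Its means were 173 ± 35.3 CPM in S- and 297 ± 128 CPM in S+ (SD, n = 4 each). The log2 fold change had an SE of 0.297 and an adjusted p of 0.352 by limma. An exact permutation test of the same 8 values gave a two-sided p of 0.114. With single libraries omitted, the log2 fold change lay anywhere from 0.47 to 0.91. CU929070.1 had 572, 377, 461 and 468 CPM in S- 1 to S- 4 and 528, 509.7, 639.8 and 659 CPM in S+ 1 to S+ 4. S+ 1 and S+ 2 lay below S- 1, the highest S- library, and the other S+ libraries lay above it. Since 4 genes of 1 clone may be copies among which the authors' counting divides reads, they are not 4 independent observations. None of the 4 has a snoRNA name in the sources used here.

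SNORD82 (ENSDARG00000107036), a box C/D snoRNA that lies in an intron of nucleolin in human, was the named gene with the most reads. It had 352, 251, 243 and 374 CPM in S- 1 to S- 4 and 232, 209, 302 and 278 CPM in S+ 1 to S+ 4. S- 1 and S- 4 were the highest libraries, but S- 2 and S- 3 lay among the S+ libraries. Its log2 fold change was -0.24 (SE 0.193, adjusted p = 0.637 by limma). The clone CU469540 that holds SNORD82 also holds both genes named SNORA75, an H/ACA snoRNA of human nucleolin. The SNORA75 copy with more reads (CU469540.1) had 9.32 ± 2.91 CPM in S- and 6.58 ± 2.24 CPM in S+ (SD, n = 4 each), a log2 fold change of -0.53 (SE 0.341, adjusted p = 0.545 by limma). Of the remaining genes among the 12, CT027646.1 and CT027646.2, which share a clone, had log2 fold changes of 0.09 and 0.25. BX470163.2 and CR847523.1 had log2 fold changes of -0.05 and -0.19. The limma adjusted p of these 4 genes lay between 0.552 and 0.912. SNORD38A (ENSDARG00000106293), the last of the 12, had 103, 25.6, 50.6 and 127 CPM in S- 1 to S- 4 and 79.0, 81.2, 98.9 and 64.7 CPM in S+ 1 to S+ 4. S- 2 was the lowest and S- 4 the highest library, so that both extremes lay within the control group. Without S- 2 its log2 fold change turned from 0.38 to -0.11.

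**Figure D2:**
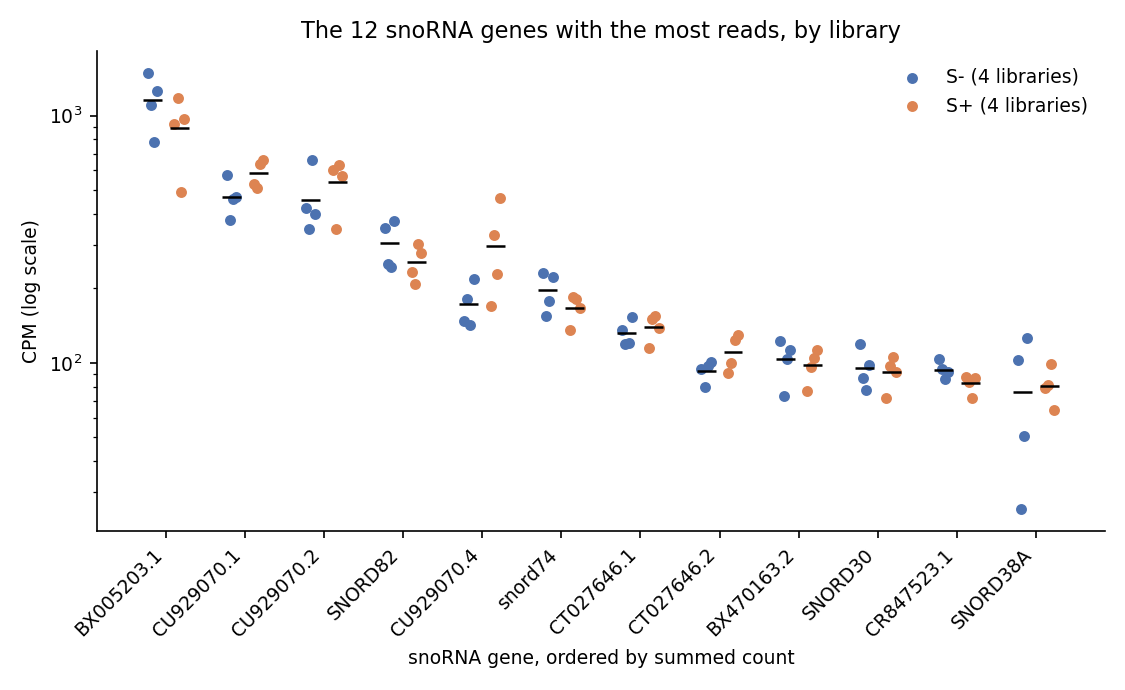
CPM (vertical axis, log scale) of the 12 snoRNA genes with the most reads in each of the 4 S- and 4 S+ libraries (points), with the mean of each group (bar). The 2 groups overlap in all 12 genes, and the lowest point for BX005203.1 is library S+ 3 at 491 CPM.

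Below the 12 leading genes, another 12 had at least 1000 reads, and none of their groups was separated except those of CU076099.1, described further on. Of all tested genes, 7.68% had groups that did not overlap. CU467861.8, an unnamed gene on the gas5 clone, had 87.5, 61.0, 87.2 and 91.2 CPM in S- 1 to S- 4 and 63.5, 54.3, 91.6 and 74.6 CPM in S+ 1 to S+ 4. Its lowest library was S+ 2 and its highest S+ 3, so both extremes lay in S+, and its log2 fold change was -0.19 (SE 0.219, adjusted p = 0.743 by limma). BX901883.1 had 74.9, 63.7, 49.9 and 42.5 CPM in S- 1 to S- 4 and 58.3, 59.8, 45.4 and 67.3 CPM in S+ 1 to S+ 4. The groups overlapped widely, at 57.8 ± 14.4 CPM in S- and 57.7 ± 9.09 CPM in S+ (SD, n = 4 each), with a log2 fold change whose SE was 0.225. CR848032.1 was uneven, with 20.3 to 49.3 CPM in S- and 9.12 to 57.4 CPM in S+. S+ 2 was the lowest and S+ 4 the highest library for it, and the SE of its log2 fold change of -0.42 was 0.522. Without S+ 2 the value turned to 0.11. CABZ01078601.2 and CR759830.2 had log2 fold changes of -0.06 and -0.16, with adjusted p of 0.912 and 0.753 by limma. The remaining 6 genes with at least 1000 reads were CU929070.3, SNORD83A and the copies snord31.1, snord31.2, snord79.1 and snord79.2.

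Host groups known from human genes could be followed through several snoRNAs. In human, GAS5 is a noncoding gene whose introns hold a series of box C/D snoRNAs, among them SNORD74, SNORD79 and SNORD47. Here snord74, snord79.1, snord79.2 and snord47.2 shared the clone CU467861 with the gene that the reference names gas5 (ENSDARG00000092337, biotype processed transcript). snord74 (ENSDARG00000083457) had 231, 154, 179 and 222 CPM in S- 1 to S- 4 and 136, 184, 182 and 167 CPM in S+ 1 to S+ 4. The highest values came from S- 1 and S- 4 and the lowest from S+ 1, with overlapping groups, and its log2 fold change was -0.21 (SE 0.179, adjusted p = 0.651 by limma). snord79.1 had 38.3, 26.1, 55.2 and 38.2 CPM in S- 1 to S- 4 and 42.5, 20.6, 116 and 38.4 CPM in S+ 1 to S+ 4. Library S+ 3 stood above all others for it, and its log2 fold change of 0.27 had an SE of 0.484 and turned to -0.24 without S+ 3. snord79.2 was less uneven, with 34.7 to 49.6 CPM in S- and 23.3 to 56.0 CPM in S+, and its log2 fold change of -0.14 turned to 0.09 without S+ 2. snord47.2, at the minimum of 10 reads, had 0, 0, 0 and 0 reads in S- 1 to S- 4 and 1, 6, 3 and 0 in S+ 1 to S+ 4. The 4 snoRNAs together held 8764 reads, against 25208 for the gas5 transcript, whose level was 2.41 to 3.76 times theirs depending on the library. gas5 had 736 ± 153 CPM in S- and 819 ± 175 CPM in S+ (SD, n = 4 each), a log2 fold change of 0.16 (SE 0.197, adjusted p = 0.743 by limma). Whether the gas5 row overlaps the snoRNAs and shares reads with them could not be settled from the table.

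In human, SNHG1 (also called UHG) carries SNORD22 and SNORD25 to SNORD31 in its introns. Of the zebrafish genes with these names, snord22, snord29 and 3 copies of snord31 lay on the clone AL954715, and SNORD30 was named without a clone. SNORD30 (ENSDARG00000080156) had 119, 86.7, 77.6 and 97.9 CPM in S- 1 to S- 4 and 72.4, 96.8, 106 and 92.0 CPM in S+ 1 to S+ 4. S- 1 was highest and S+ 1 lowest, and the log2 fold change was -0.04 (SE 0.193, adjusted p = 0.937 by limma). snord31.1 had 73.3, 76.5, 90.3 and 74.7 CPM in S- 1 to S- 4 and 60.3, 38.2, 64.4 and 89.7 CPM in S+ 1 to S+ 4. Library S+ 2 was low for this gene, and S+ 4 lay among the highest. Its log2 fold change was -0.39 (SE 0.245, adjusted p = 0.545 by limma), and that of snord31.2 was -0.36 (SE 0.290, adjusted p = 0.637 by limma). snord31.3 and snord29 had positive log2 fold changes of 0.09 and 0.42, of which the first turned to -0.08 without S+ 3. The 6 genes therefore divided into 4 with a lower and 2 with a higher mean in S+ by the fitted log2 fold change, and none was called. Summed over the 6 genes, the level was 265 ± 26.6 CPM in S- and 236 ± 37.8 CPM in S+ (SD, n = 4 each).

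**Figure D3:**
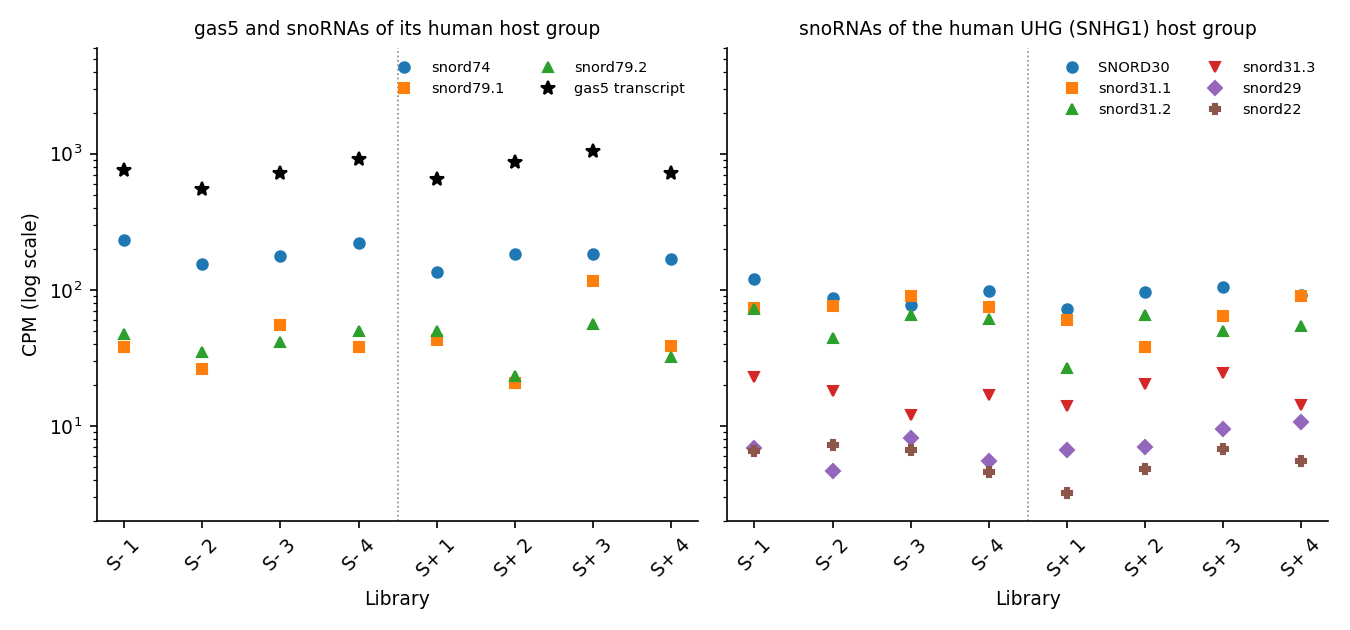
CPM (vertical axis, log scale) in each library (horizontal axis, S- left and S+ right of the dotted line) of the gas5 transcript with snord74, snord79.1 and snord79.2 (left panel) and of the 6 snoRNAs named for the human SNHG1 gene (right panel). The gas5 transcript lies above its snoRNAs in all 8 libraries, and snord79.1 peaks in S+ 3.

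A further group was formed by snoRNAs whose human counterparts lie in introns of ribosomal protein genes. The list followed here held 31 such genes, of which 23 passed the filter for testing. Of these, 15 had a lower and 8 a higher fitted mean in S+, and none was called. SNORA62 was on the list, but SNORA6 (28 reads), which the gene name table names SNORA62, was not. SNORD83A, held by RPL3 in human, had 46.7 ± 6.42 CPM in S- and 50.6 ± 16.2 CPM in S+ (SD, n = 4 each), a log2 fold change of 0.09 (SE 0.246, adjusted p = 0.886 by limma). S+ 3 was its highest library at 74.1 CPM, and without it the log2 fold change was -0.14. Both SNORD33 copies, held by RPL13A in human, had a positive log2 fold change, 0.38 for CR352220.1 and 0.28 for CR626962.1. All 3 genes named SNORD15, held by RPS3 in human, had a negative one, between -1.35 and -0.52, with standard errors from 0.554 to 1.60. Summed over the 31 genes, the level was 307 ± 46.8 CPM in S- and 306 ± 40.5 CPM in S+ (SD, n = 4 each). Among all 171 genes, 18 names were carried by 2 or more genes, and reads of near-identical copies may have been divided between them by the counting. The 4 copies of SNORD83 on the clone CR792441 had similar sums of 106 to 176 reads, whereas the 5 copies of U3 ranged from 11 to 290.

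The snoRNAs that act in cutting the rRNA precursor were few in reads. U3 is needed for the cuts that release the small subunit rRNA, as are U14 (SNORD14), U22 (snord22) and the H/ACA RNA SNORA73, while U8 (SNORD118) acts on the large subunit rRNA. The U3 copy CT573256.3 (ENSDARG00000115704) had 9.57, 21.0, 8.65 and 4.28 CPM in S- 1 to S- 4 and 5.68, 4.80, 8.66 and 6.99 CPM in S+ 1 to S+ 4. The copy CABZ01030292.2 (ENSDARG00000112042) had 9.03, 20.3, 11.4 and 4.90 CPM in S- 1 to S- 4 and 5.43, 3.12, 5.39 and 8.15 CPM in S+ 1 to S+ 4. In both the S- 2 library was the highest. The first of them had a log2 fold change of -0.57 (SE 0.457, adjusted p = 0.632 by limma), which became -0.18 without S- 2. The second had a log2 fold change of -0.99 (SE 0.464, adjusted p = 0.401 by limma), which became -0.66 without S- 2. The third tested copy, CABZ01030291.1, had 5.50 ± 5.78 CPM in S- and 6.34 ± 4.29 CPM in S+ (SD, n = 4 each), a log2 fold change of 0.28. It too was highest in S- 2, without which its log2 fold change was 0.98. Summed over the 5 U3 genes, the level was 20.5, 56.2, 25.9 and 11.9 CPM in S- 1 to S- 4 and 16.8, 10.1, 22.7 and 27.4 CPM in S+ 1 to S+ 4. snord118a had 5.37 ± 1.93 CPM in S- and 5.61 ± 0.865 CPM in S+ (SD, n = 4 each), a log2 fold change of 0.12 (SE 0.347, adjusted p = 0.899 by limma), and snord22 one of -0.33 (SE 0.319, adjusted p = 0.701 by limma). The SNORD14 copy with the most reads (BX120005.1) had 5, 16, 24 and 11 reads in S- 1 to S- 4 and 9, 0, 16 and 9 in S+ 1 to S+ 4, with no read in S+ 2. Its log2 fold change of -1.39 had a standard error of 0.952 and moved to -0.28 without S+ 2. The SNORA73 copy BX276180.1 had 3.54 ± 1.82 CPM in S- and 2.51 ± 0.734 CPM in S+ (SD, n = 4 each), a log2 fold change of -0.44 (SE 0.541, adjusted p = 0.743 by limma). The other 8 genes of this group, with 10 to 58 reads each, did not pass the filter. They were SNORA73 BX276180.2 and BX276180.4, SNORD14 BX120005.5 and BX120005.4, U3 BX928751.5 and CU367852.8, snord118b.3 and snord118b.4.

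Most H/ACA genes were highest in the same library. Of the 19 H/ACA genes, 15 had their highest CPM in S- 2, against 40 of the 152 other snoRNA genes. Copies may divide the same reads, and the 2 SNORA71 genes had equal counts in every library. Among the other genes, CU695215.1 and BX248136.1 did too. The genes counted here are therefore not independent observations. The summed level of the H/ACA genes was 29.5, 63.2, 39.7 and 27.8 CPM in S- 1 to S- 4 and 24.2, 21.4, 29.8 and 32.0 CPM in S+ 1 to S+ 4. S- 2 was highest and S- 3 also lay above every S+ library, while S- 1 and S- 4 lay within the range of the S+ libraries. Box C/D genes summed to 1205 ± 152 CPM in S- and 1097 ± 169.9 CPM in S+ (SD, n = 4 each) and unclassified genes to 3456 ± 348 CPM in S- and 3446 ± 340.0 CPM in S+ (SD, n = 4 each). As a share of the classified reads, box C/D genes held 94.1% in S- 2 and between 96.7% and 97.9% in the other 7 libraries. Of the 15 snoRNA genes with at least 50% of their reads in 1 library, all with fewer than 100 reads, 11 had them in S- 2. Reads of S- 2 also helped genes to reach the minimum sum, so these counts follow in part from the choice of the genes. With the minimum asked of the other 7 libraries, a choice made after seeing the data, 12 of 16 H/ACA genes and 36 of 140 other snoRNA genes were highest in S- 2, and 6 of the 11 genes remained. Among these 6 was the H/ACA gene SNORA36A, with 15 of its 28 reads in S- 2. The rest were the unclassified genes FP074902.4, CR936322.2, CR936322.1, CR936321.4 and BX571981.1. H/ACA genes also had fewer reads, with a median sum of 28 against 165.5 for box C/D and 103.5 for unclassified genes. The comparison of the classes was not matched for reads. Other RNAs were high in that library too. Small nuclear RNA (snRNA) genes, the RNAs of the spliceosome, summed to 1139 CPM in S- 2 against 251 to 396 CPM in the other 7 libraries, and lincRNA genes to 8683 CPM against 579 to 4104 CPM. The part of this library in the H/ACA values was not tested.

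**Figure D4:**
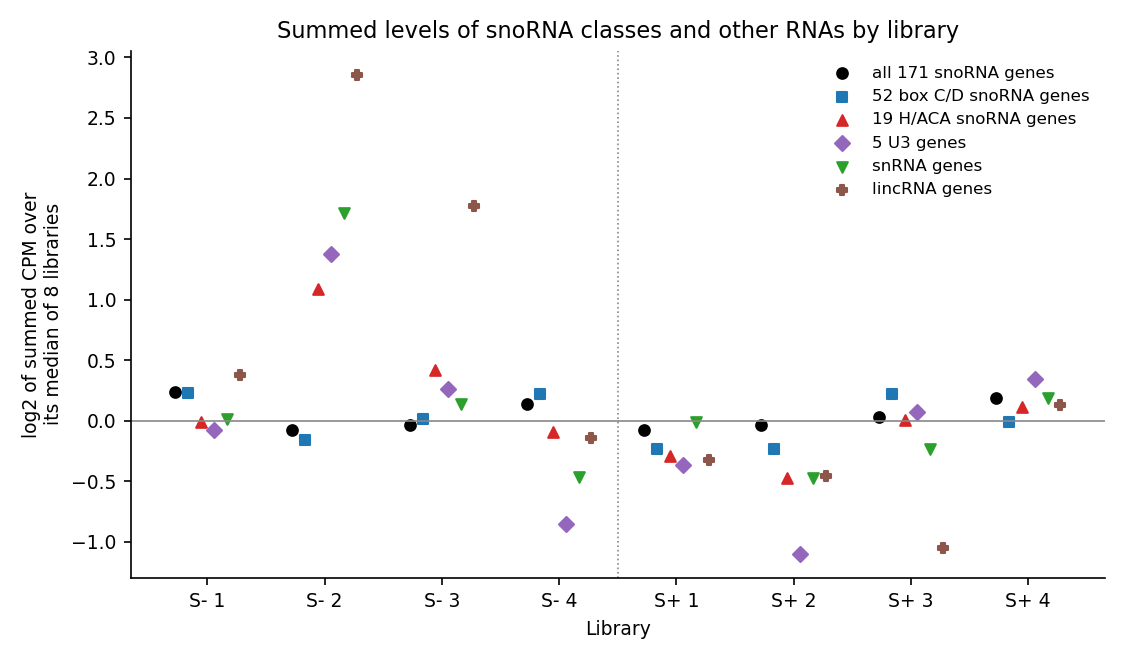
Summed CPM of snoRNA classes, U3 genes, snRNA genes and lincRNA genes in each library, as log2 of the ratio to the median of the 8 libraries (vertical axis, 0 is the median). In S- 2 the H/ACA, U3, snRNA and lincRNA sums lie highest, while the sum of all 171 snoRNA genes stays between 4237 and 5262 CPM over the 8 libraries.

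Between the groups as a whole, the snoRNA level was similar in size. Summed over the 171 genes it was 5262, 4251, 4375 and 4914 CPM in S- 1 to S- 4 and 4237, 4364, 4574 and 5104 CPM in S+ 1 to S+ 4. The highest library was S- 1 and the lowest S+ 1, with overlapping groups. The means were 4700.2 ± 472 CPM in S- and 4569.9 ± 382 CPM in S+ (SD, n = 4 each), a log2 ratio of -0.04, and without BX005203.1 the log2 ratio was 0.05. The sum thus depends in its sign on 1 gene. The genes varied more among libraries than their sum did. For the 90 tested genes with a read in every library, the highest library lay between 1.34 and 12.3 times above the lowest, with a median of 2.65. The median coefficient of variation over the 96 tested snoRNA genes was 25.8% in S- and 30.6% in S+, where counting error alone at their median count would give 16.7%. For 174 miRNA genes with summed counts in the same range, it was 16.6% and 16.9%, at a counting error of 4.06%. Within that range the miRNA genes had a higher median count, so these spreads do not compare genes at like counts.

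In the test across all genes, 96 of the 171 snoRNA genes passed the filter on low counts, which asks for about 10 reads in at least 4 libraries. They held 98.2% of the snoRNA reads. The other 75 had at most 104 reads, and 16 of the 19 H/ACA genes were among them, against 13 of the 52 box C/D genes. None of the 96 snoRNA genes was called, against 2 of all 651 genes (0.307%). The smallest adjusted p among them was 0.212. Before adjustment, p was under 0.05 in limma for 2 of the 96 snoRNA genes (2.08%), against 12.4% of all genes tested. They were 1 gene lower in S+, CU076099.1, against 5.22% of all genes, and 1 higher, CU929070.4, against 7.22%. With edgeR's quasi-likelihood test or DESeq2 in place of limma there were again 0 called snoRNA genes, though DESeq2 called 4.61% of all 651 genes and edgeR 0.307%. Before adjustment, 3 snoRNA genes (3.12%) had a p under 0.05 by either tool, against 12.4% of all genes by edgeR and 13.6% by DESeq2.

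The snoRNA gene with the smallest p was CU076099.1 (ENSDARG00000089164), which has no snoRNA name. It had 51.7, 46.0, 53.4 and 52.9 CPM in S- 1 to S- 4 and 33.8, 42.7, 28.1 and 34.1 CPM in S+ 1 to S+ 4. Every S+ library lay below every S- library, with S+ 2 closest to them. The means were 51.0 ± 3.42 CPM in S- and 34.7 ± 6.04 CPM in S+ (SD, n = 4 each), a log2 fold change of -0.57 (SE 0.192, adjusted p = 0.212 by limma). An exact permutation test over all 70 assignments of the libraries gave a two-sided p of 0.0286, the smallest that 4 against 4 libraries allow. Any gene whose groups do not overlap has this p, and CU076099.1 was picked by its p on the same values. The exact p is thus not separate support. Omitting single libraries gave log2 fold changes from -0.69 to -0.47, and the adjusted p ran from 0.0647 with DESeq2 to 0.589 over all alternatives. Another gene of the same clone, CU076099.3, had 21.2 ± 3.30 CPM in S- and 17.9 ± 5.95 CPM in S+ (SD, n = 4 each) and a log2 fold change of -0.30. CR382296.1 (ENSDARG00000081621) was the reverse case, with 8.75, 6.63, 8.39 and 10.1 CPM in S- 1 to S- 4 and 12.1, 11.5, 14.2 and 10.8 CPM in S+ 1 to S+ 4. Every S+ library lay above every S- library, though by a small margin between S- 4 and S+ 4. Its log2 fold change was 0.54 (SE 0.243, unadjusted p = 0.0501 and adjusted p = 0.394 by limma). These were the 2 tested snoRNA genes whose groups did not overlap (2.08%), against 7.68% of all genes tested, 2.92% with S+ lower and 4.76% with S+ higher. With miRNA genes left out of library sizes and TMM factors, or with no filter on low counts, neither gene kept its groups apart.

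The remaining genes among the 8 with the smallest p were not separated by group. CU693368.1 had 4.92, 8.18, 5.34 and 7.65 CPM in S- 1 to S- 4 and 2.96, 2.64, 4.62 and 5.53 CPM in S+ 1 to S+ 4, and FP101887.3 had 36.1, 29.2, 23.1 and 16.2 CPM in S- 1 to S- 4 and 19.3, 14.6, 12.7 and 21.8 CPM in S+ 1 to S+ 4. In both, the S+ values reached into the range of the S- values, and the log2 fold changes were -0.75 and -0.61. CR388062.2 had 6.02, 7.30, 1.02 and 5.20 CPM in S- 1 to S- 4 and 7.66, 6.48, 8.66 and 10.2 CPM in S+ 1 to S+ 4. Library S- 3 was low for it, and its log2 fold change was 1.01 (SE 0.520, adjusted p = 0.447 by limma), or 0.38 without S- 3. The largest fitted changes among the 96 genes came from genes with few reads and with libraries at 0, and these genes were chosen after their values had been seen. FP101887.4, at a log2 fold change of 2.59 with a standard error of 1.72, had 0, 0, 0 and 12 reads in S- 1 to S- 4 and 20, 0, 19 and 14 in S+ 1 to S+ 4. CABZ01000633.2, at -1.43 with a standard error of 1.27, had 16, 2, 33 and 11 reads in S- 1 to S- 4 and 4, 0, 9 and 16 in S+ 1 to S+ 4.

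**Figure D5:**
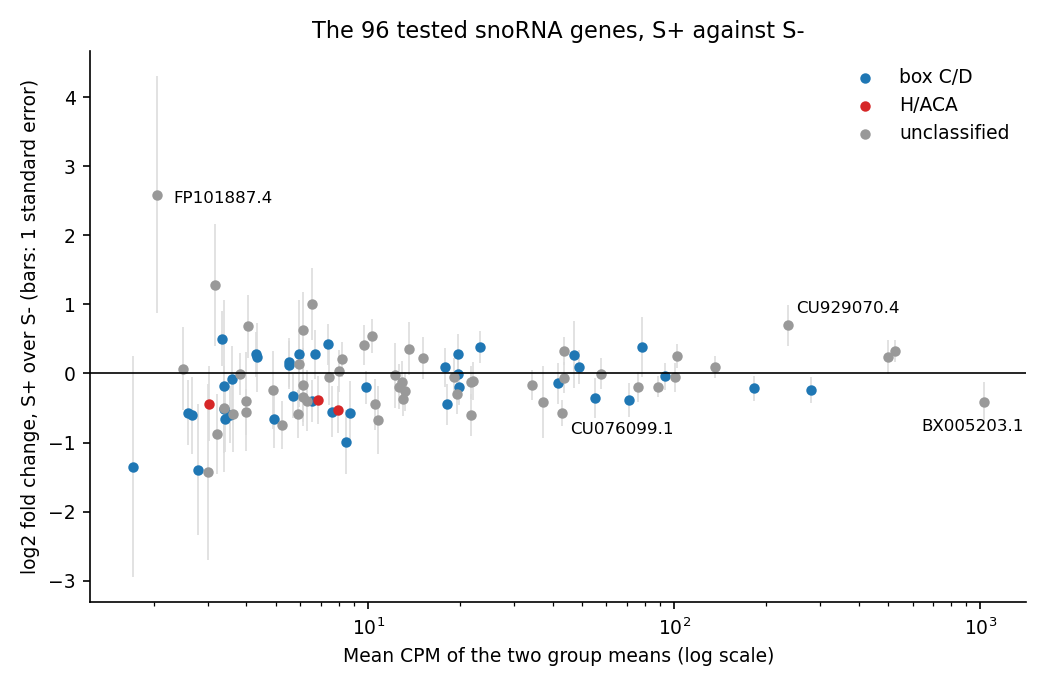
Log2 fold change of S+ over S- (vertical axis, bars give 1 standard error from limma) against the mean CPM of both groups (horizontal axis, log scale) for the 96 tested snoRNA genes, coloured by class. The points scatter around 0, the widest bars belong to genes with few reads such as FP101887.4, and no gene was called.

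By the fitted log2 fold change, 63 of the 96 tested snoRNA genes were lower in S+ (65.6%) and 33 higher, against 53.5% lower of all 651 genes. The median was -0.16, against -0.02 over all genes tested. Of the 21 tested snRNA genes, 17 were lower and 4 higher, with a median of -0.39. Of the 271 tested miRNA genes, 141 were lower and 130 higher, with a median of -0.01. Over all 555 tested genes other than snoRNA genes, 285 were lower and 270 higher, with a median of -0.01. A lean to lower values was thus also present in the snRNA genes, at a median SE of 0.573, but hardly in the miRNA genes. Whether the lean of the snRNA genes and that of the snoRNA genes are alike was not tested. Box C/D genes had a median of -0.19 over 39 genes, unclassified genes -0.11 over 54, and the 3 tested H/ACA genes lay between -0.53 and -0.38. All 3 were highest in S- 2. Without it they stood at -0.35 (SNORA75 CU469540.1), -0.24 (SNORA70) and -0.21 (SNORA73 BX276180.1). The libraries did not share equally in the lower values of the snoRNA genes. S+ 2 was the lowest library for 30 of the 96 genes, and without S+ 2 the median was -0.04, with 59 of 102 tested snoRNA genes lower. S+ 4 was the highest library for 20 genes and S+ 3 for 18. S- 2 was at once the highest library for 18 genes (18.75%, against 17.3% of the other tested genes) and the lowest for 16. Without S- 2 alone the median was -0.20, with 65 of 100 tested snoRNA genes lower, so the lean did not shrink. With S- 2 and S+ 2 both left out, an alternative chosen after seeing the data, the median was -0.04 and no snoRNA gene was called.

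The proteins of the snoRNA particles could not be followed in these libraries. Of 24 genes for core proteins and assembly factors, 23 were found in the table, among them fbl (fibrillarin) and nop56 and nop58 of the box C/D particle, and dkc1 (dyskerin), gar1, nhp2 and nop10 of the H/ACA particle. They had 94 reads in all, 5 of them had none, and the highest, nop56, had 26 over the 8 libraries. None of them passed the filter. gar1 had 8 of its 11 reads in S- 2, but dkc1 had 2 of 11 there, nhp2 3 of 6 and nop10 0 of 3. A change in these genes could not be detected from so few reads.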

How the data were processed

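The sources describe pools of larvae, RNA extraction with a miRNeasy kit, and libraries from a stranded RNA kit with unique molecular identifiers, whereas their account of the read processing names small RNA reads and does not mention removal of duplicates. The authors trimmed reads with Trim Galore 0.6.6 (minimum length 16), mapped them to GRCz11 with STAR 2.7.8a, estimated reads per gene with RSEM 1.3.0 and deposited estimated counts as whole numbers, not normalized. RSEM divides reads among near-identical copies, and all precision given here covers counting error and the spread between crossings. It does not cover repeats of the stress treatment, since the libraries came from the first run of the experiment. The paper kept S- and S+ males in separate tanks, so stress and tank cannot be told apart.

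From these counts, S+ was compared with S- by limma 3.58.1 after voom (R 4.3.3), with TMM factors and filterByExpr (minimum count 10) from edgeR 4.0.16, on the whole table, as the methods name limma and voom. Exact permutation tests used all 70 assignments. The fit was tested on simulated data. DESeq2 1.42.0, edgeR's quasi-likelihood test, limma-trend (log2 CPM with a prior count of 2), other normalizations and filters, the replicate block, other member rules and each library left out were the alternatives. Named genes were the 12 with the most reads, the 8 tested with the smallest p, called genes, the rRNA cleavage group, genes at the minimum and any with at least 100 reads of which at least 50% fell in 1 library (0 genes). Other genes with at least 1000 reads and the host groups were named after their values had been seen. Genes, lists and host groups were chosen with earlier results of these data known. Names came from the count table, or from the gene name table, which names 105 of 247 snoRNA rows. ENSDARG00000081943 is SNORA6 in the first and SNORA62 in the second, and the first was kept.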

Additional observations from a re-analysis of the deposited data

How the results depend on the processing

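No snoRNA gene was called under any alternative that used a filter on low counts, with any library left out or without a minimum fold change. With no filter on low counts, 1 of 171 was called, CR396582.3, named after its values were seen (26 reads, log2 fold change -2.69, adjusted p = 0.0441), against 0.431% of 18338 genes. In that setting 21 snoRNA genes (12.3%, 15 lower and 6 higher) had an unadjusted p below 0.05 by limma, against 7.23% of all genes. The groups of 6 did not overlap, against 1.24%. The share of snoRNA genes thus stood above that of all genes, where with the filter it stood below. These shares are not of like sets. All snoRNA genes were chosen to have at least 10 reads, while 3841 of the 18338 genes had as many. With a summed count of at least 10, 0 were called, and the adjusted p of CR396582.3 was 0.314 by limma. There 13 (7.60%, 10 lower and 3 higher) had an unadjusted p below 0.05 by limma, against 7.34% of 3841 genes. The groups of 7 of the 171 did not overlap, a share slightly below the 4.35% of all genes. Both settings test all 171 genes and not 96, and both gave a median log2 fold change of -0.28. With at least 10 counts in every library, 4 of 69 had an unadjusted p below 0.05 (5.80%, against 13.8% of all genes). With miRNA genes left out of library sizes and TMM factors, the groups of 1 gene, CR388062.2, did not overlap, against 6.28%. With S- 2 and S+ 2 both left out, 6 of 100 had an unadjusted p below 0.05, against 11.1% of all genes. With each library left out this count ran from 2 to 8, with 8 without S- 4, 7 without S+ 4 and 4 without S- 2, against 10.2% to 13.2% of all genes. The median log2 fold change then ran from -0.24 to -0.04 and the log2 ratio of the summed level from -0.10 to 0.02. The box C/D share of classified reads was higher in S+ by 0.135 to 1.40 percentage points, the lowest of these without S- 2. The pooled SD of this share was 1.26 points. The mean box C/D share of all snoRNA reads was lower in S+, at 24.0% against 25.6% in S-. S+ 3 went the other way, at 29.0%, above the 23.9% to 27.0% of the S- libraries. The other S+ libraries had 22.1% to 22.9%. What caused these shifts was not tested.

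Same-numbered libraries came from different crossings, and the deviations of same-numbered libraries from their group means correlated between -0.159 and 0.248, so the numbers were not taken to pair them. The replicate block gave 0 called snoRNA genes, against 1.38% of all genes, 3 at an unadjusted p below 0.05 (3.12%, against 14.9%) and a median log2 fold change of -0.14, with 3 of 8 libraries best matched by their own number.

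Of 452 values of the named genes under the alternatives, 441 kept their sign and 11 did not, all of them uncalled. With S- 2 and S+ 2 both left out, CT027646.1 stood at -0.00926 and SNORD38A at -0.11. With 1 library left out, BX470163.2 ranged from -0.23 to 0.0405, SNORD30 from -0.13 to 0.0706, the U3 copy CABZ01030291.1 from -0.15 to 0.98, snord118a from -0.16 to 0.30 and SNORD38A from -0.11 to 0.69. No group of 4 libraries among the 58 examined held a library past the limit of Dixon's test. These groups did not cover every measure given here, so the result does not show that no library stood apart. In the measures that follow, which were not among those examined, a single library lay far from the others of its group. In the box C/D share of all snoRNA reads, S+ 3 stood at 29.0%, against 22.1% to 22.9% in the other S+ libraries. In the snRNA sum, S- 2 stood at 1139 CPM, against 252 to 383 CPM in the other S- libraries. Low counts limit the 75 untested genes, the H/ACA class above all.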
